A study of Mus musculus with 20 samples.

Results

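The expression of 37 genes of glycolysis and of the response to low oxygen was followed in mouse lung cells moved between flat plates and collagen hydrogels. The genes were chosen by a list of symbols and not by a threshold on their values, but with earlier results of these data known. All 37 were found among the 18012 genes that carried values. By role, 19 encode glucose and lactate transporters and glycolytic enzymes, 3 encode regulators of glycolysis and of pyruvate use, 5 encode hypoxia-inducible factor (HIF) subunits and the proteins that sense oxygen for them, and 10 are other known HIF target genes. Glycolysis turns glucose into pyruvate and, with lactate dehydrogenase, into lactate. HIF is a dimer whose alpha subunit, HIF-1α (Hif1a) or HIF-2α (Epas1), is hydroxylated by prolyl hydroxylases (Egln genes) while oxygen is present, bound by the VHL protein and degraded. When oxygen falls the subunit is stable, and the dimer binds a short DNA core upstream of many genes, glycolytic enzymes among them. RNA of Hif1a therefore does not report the amount of its protein.

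All cells came from normal lungs of male C57BL/6 mice that were digested with collagenase, and no chemical treatment was given. The digests were cultured for 4 days and then passaged for 2 more days, and each group is named by its first and second culture. The 3D-3D group was in collagen hydrogel both times, the 2D-3D group moved from plates into gel, the 3D-2D group moved from gel onto plates, and the 2D-2D group stayed on plates. The Sort_Fib group, called sorted cells here, was not cultured and was the flow-through left after paramagnetic particles had removed CD45+, EpCam+ and CD31+ cells. The 4 cultures were started from digests that had not been sorted. RNA was sequenced from 4 libraries of each of these 5 groups. The labels do not say whether replicates came from separate animals or cultures, so the p-values rest on a spread among libraries that may be only technical.

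The cultured libraries held 19.67 to 20.33 M counts (M, 1e6) and the sorted ones 11.66 to 13.95 M. Levels are CPM, a library's counts scaled to a total of 1e6, after TMM, a correction for differences in library composition. Fibroblast markers made up 0.656% to 1.73% of the counts across the 20 libraries, with all 10 markers present in every group. Other cell types were also present. Macrophage markers, which include Cd68 and Csf1r, made up 1.31%, 2.14%, 1.16%, 0.737% and 0.602% of counts on average over the libraries of 3D-3D, then 2D-3D, 3D-2D, 2D-2D and sorted cells. The 10 endothelial markers made up 0.241% of counts in sorted cells, and Pecam1, which encodes the depleted CD31, stood at 395 ± 16.9 CPM there (SD, n = 4). The part of such cells in the results below was not tested. In RNA of whole cultures, fewer cells of a type and less RNA per cell cannot be told apart.

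One library stood apart for these genes. In 3D-3D replicate 3, 24 of the 37 genes were at least 1.5-fold above the mean of the other 3 libraries of the group and none was as far below it, with 0.5 CPM added to both. Of the 13704 genes tested among cultures 5.76% were that far above and 5.05% that far below. The median of the 37 genes was 0.71 higher there on the log2 scale, and that of all genes was -0.02. Slc2a3, Car9 and Egln3 were 3.31, 3.23 and 3.18 times the mean of the other 3 libraries, whereas Epas1 and Hif1a were at 0.819 and 0.917 times it. In 2D-3D replicate 1, 7 genes were at least 1.5-fold above the other 3 libraries and none below, against 1.95% and 1.77% of all genes. In 2D-3D replicate 4, 7 were at least 1.5-fold below and 1 above, against 3.29% and 2.11% of all genes. No gene of the 37 was 1.5-fold away in any library of 3D-2D or 2D-2D. The macrophage and endothelial marker shares of 3D-3D replicate 3 were 1.41% and 0.00957%, inside the range of the other 3 libraries of its group (1.17% to 1.42% and 0.00818% to 0.0116%). The fibroblast, epithelial and mesothelial shares were inside that range too. Its neutrophil share of 0.00812% was above the 0.00455% to 0.00532% of the other 3, and its lymphocyte share of 0.00571% above their 0.0037% to 0.00512%. Its smooth muscle and myofibroblast share of 0.0731% was below their 0.0897% to 0.146%, and its proliferation share of 0.019% below their 0.02205% to 0.0357%. The part of these in its levels was not tested. Results with 3D-3D are given with and without this library where it matters.

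**Figure D1:**
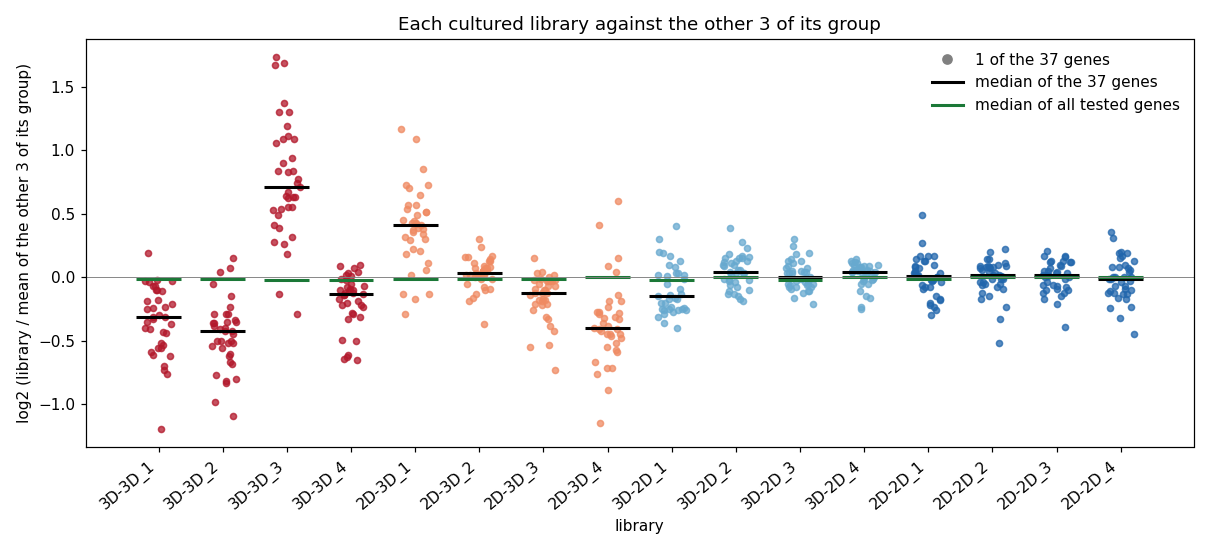
Each of the 37 genes (points) in each of the 16 cultured libraries, as the log2 ratio of its CPM to the mean of the other 3 libraries of its group (vertical axis), with the median of the 37 genes (black bar) and of all 13704 tested genes (green bar). The points of 3D-3D replicate 3 lie around a median of 0.71 while the green bar stays at -0.02, and the plate-ending libraries stay close to 0.

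Keeping cells in gel throughout (3D-3D) rather than on plates throughout (2D-2D) gave counts that differed by role. Of the 37 genes, 18 were higher and 8 lower in 3D-3D at an adjusted p below 0.05 in edgeR's quasi-likelihood test, adjusted over all genes, where 38.6% of all genes were higher and 34.9% lower. Among the 10 other HIF targets 8 were higher and none lower, with a median log2 change of 1.52. Among the 19 transporters and enzymes 3 were higher and 8 lower, with Gapdh, Pkm, Eno1 and Ldha among the lower ones and a median of -0.13, and the median of all genes was 0.05. All 3 regulators were higher, as were 4 of the 5 genes for HIF subunits and oxygen sensing. Without 3D-3D replicate 3 the counts were 17 higher and 13 lower, where 38.1% of all genes were higher and 34.6% lower, so that the share lower was near that of all genes. Of the 26 calls 25 remained. Vhl was lost, and Slc2a1, Pfkp, Pgam1, Egln1 and Higd1a joined the lower genes. The 19 transporters and enzymes then had 3 higher and 11 lower, with a median of -0.32. Scaling by library size alone moved the median of all genes by 0.32, and gave 20 higher and 4 lower, where 53.2% of all genes were higher and 21.9% lower, so that the share higher was near that of all genes. Other markers moved between these groups. In 3D-3D 11 of 12 macrophage, 9 of 10 endothelial, 9 of 9 tested epithelial, 3 of 3 tested neutrophil and 3 of 3 tested lymphocyte markers were higher, and all 6 smooth muscle and all 5 proliferation markers were lower. Airway and alveolar epithelial markers made up 0.0234% to 0.0508% of counts in 3D-3D and 0.00102% to 0.0015% in 2D-2D, and neutrophil markers 0.00455% to 0.00812% in 3D-3D and 0.000643% to 0.000754% in 2D-2D. Lymphocyte markers made up 0.0037% to 0.00571% in 3D-3D and at most 3e-05% in 2D-2D, where 4 of the 6 were at 0. Macrophage markers made up 1.17% to 1.42% of counts in 3D-3D and 0.639% to 0.834% in 2D-2D, smooth muscle and myofibroblast markers 0.0731% to 0.146% in 3D-3D and 1.64% to 1.8% in 2D-2D, and proliferation genes 0.019% to 0.0357% in 3D-3D and 0.0568% to 0.068% in 2D-2D. Their part in these results was not tested.

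After a first culture on plates, the move into gel (2D-3D against 2D-2D) had 13 genes higher and 15 lower, where 36.5% of all genes were higher and 34.7% lower. Of the 19 transporters and enzymes 13 were lower and 2 higher, with a median of -0.47. Of the 10 other HIF targets 7 were higher and 2 lower, with a median of 1.07. With scaling by library size alone 16 genes were higher and 8 lower, where 48.9% of all genes were higher and 23.5% lower, and 8 HIF targets were higher with none lower. In 2D-3D 11 of 12 macrophage and 7 of 10 endothelial markers were higher (1 endothelial marker was lower), and all 6 smooth muscle and all 5 proliferation markers lower. Macrophage markers made up 1.85% to 2.29% of counts in 2D-3D and 0.639% to 0.834% in 2D-2D. After a first culture in gel, staying in gel (3D-3D against 3D-2D) had 19 genes higher and 4 lower, where 37.7% of all genes were higher and 32.8% lower. Here 8 of 10 other HIF targets were higher with a median of 1.73. The 4 lower genes were Gapdh, Eno1, Pkm and Slc16a3, of which Slc16a3 lost the call with DESeq2 and when any of 6 libraries was left out (3D-3D replicates 1, 2 and 4 and 3D-2D replicates 2, 3 and 4). With scaling by library size alone 27 were higher and none lower, where 49.4% of all genes were higher and 22.5% lower. Leaving out 3D-3D replicate 3 gave 17 higher and 8 lower, where 36.6% of all genes were higher and 32.6% lower. Leaving out 3D-3D replicate 2 gave 21 higher and 2 lower, where 5006 of 13811 genes tested were higher and 4379 lower. All 10 endothelial, 9 of 9 tested epithelial, 3 of 3 neutrophil and 3 of 3 lymphocyte markers were higher in 3D-3D than in 3D-2D, and all 6 smooth muscle and all 5 proliferation markers lower. Endothelial markers made up 0.00818% to 0.0116% of counts in 3D-3D and 0.00133% to 0.00161% in 3D-2D, and epithelial markers 0.0234% to 0.0508% in 3D-3D and 0.00559% to 0.0125% in 3D-2D. The part of the markers in both comparisons was not tested. These comparisons share groups of libraries, so their values are given side by side and their likeness is not a result.

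**Figure D2:**
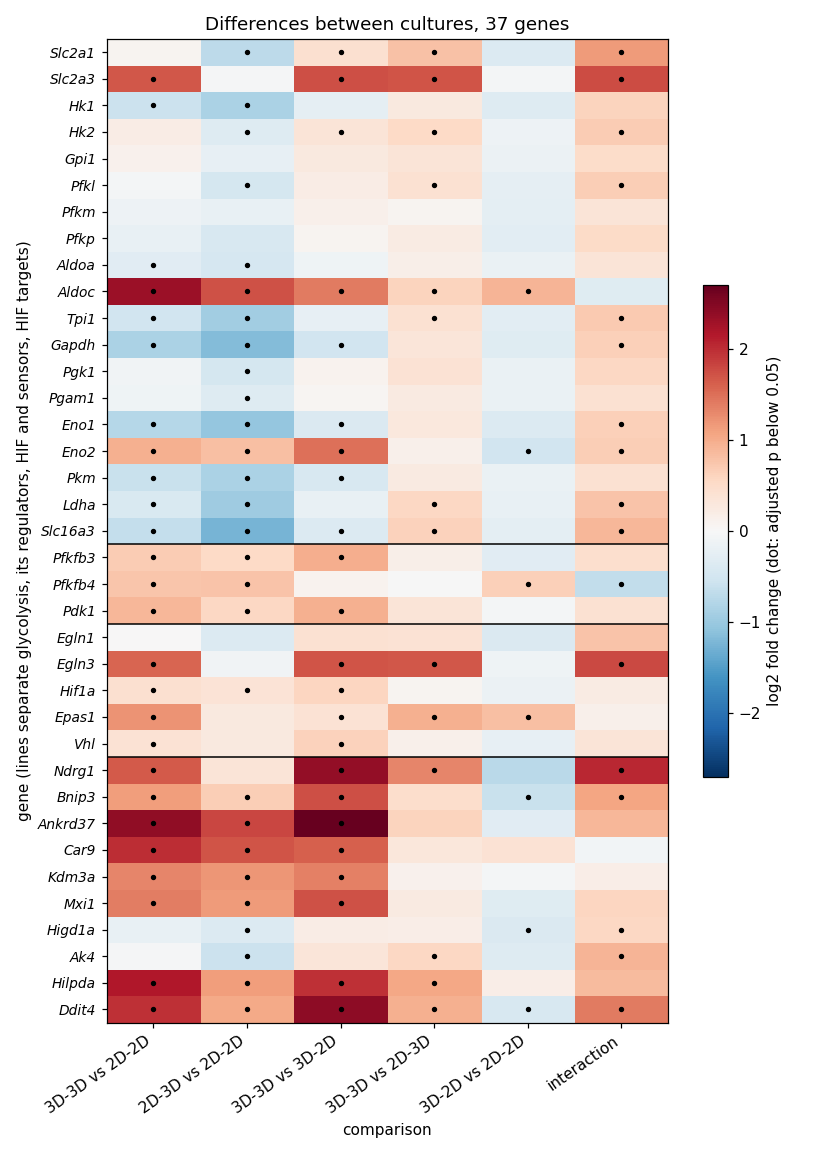
Log2 fold change (colour, red for higher in the first-named group) of each of the 37 genes in the 5 comparisons between cultures and in the interaction, which is the 3D-3D over 3D-2D change less the 2D-3D over 2D-2D change; dots mark an adjusted p below 0.05. Dots on blue cells gather among transporters and glycolytic enzymes in the 2D-3D over 2D-2D column, where 13 of 19 were lower. The 3D-3D over 2D-3D column holds 14 dots, all on red cells.

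Glycolytic enzymes were abundant on plates. The 19 genes of glucose and lactate transport and of glycolysis summed to 31399, 26326, 45449 and 31399 CPM in the 3D-3D libraries and to 33485, 27238, 25575 and 20302 CPM in the 2D-3D libraries. They summed to 36864, 44201, 43039 and 42942 CPM in 3D-2D and to 50677, 51110, 52137 and 47313 CPM in 2D-2D. With TMM scaling every 2D-2D library lay above every gel library, and among gel libraries 3D-3D replicate 3 was highest. The mean for 3D-3D was 33643 ± 8226 CPM, and 29710 ± 2930 CPM without replicate 3 (SD, n = 4 and n = 3), against 50309 ± 2089 CPM in 2D-2D. With scaling by library size alone the separation did not hold. There 3D-3D replicate 3 lay above every 2D-2D library, and the 2D-2D mean was 43810 CPM.

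Gapdh, the dehydrogenase at the first oxidative step of glycolysis, had 11720.5, 9222, 17435 and 10955 CPM in the 3D-3D libraries and 12986, 9763, 9182 and 7264 CPM in the 2D-3D libraries. On plates, Gapdh had 15466, 18698, 18313 and 18165 CPM in the 3D-2D libraries and 22152, 22258, 22595 and 21283 CPM in the 2D-2D libraries. Every 3D-3D and 2D-3D library lay below every 2D-2D library. The log2 change was -0.85 (SE 0.16, adjusted p = 6.47e-05) in 3D-3D and -1.17 (SE 0.16, adjusted p = 1.43e-06) in 2D-3D, both against 2D-2D, and -0.54 and -0.89 with scaling by library size alone. Pkm encodes pyruvate kinase, which makes pyruvate. It had 2876, 2428, 3811 and 2819 CPM in the 3D-3D libraries and 2783, 2600.2, 2559 and 2069 CPM in the 2D-3D libraries. On plates, Pkm had 3511, 4249, 4218 and 4149 CPM in the 3D-2D libraries and 4704, 4756, 4609 and 3973 CPM in the 2D-2D libraries. With TMM scaling the gel libraries again lay below all 2D-2D libraries. With scaling by library size alone, 3D-3D replicate 3 lay above 2D-2D replicate 4. The log2 change of Pkm against 2D-2D was -0.61 (SE 0.11, adjusted p = 7.49e-05) in 3D-3D and -0.85 (SE 0.11, adjusted p = 1.32e-06) in 2D-3D, with values of -0.29 and -0.57 under library size alone.

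Ldha, the lactate dehydrogenase subunit that makes lactate from pyruvate, had 2640.1, 2287, 3087 and 2689 CPM in the 3D-3D libraries and 2126, 1839.9, 1813 and 1396 CPM in the 2D-3D libraries. On plates, Ldha had 2734, 3145, 3308 and 3156 CPM in the 3D-2D libraries and 3618, 3571, 3555 and 3347 CPM in the 2D-2D libraries. The 3D-3D libraries lay above the 2D-3D libraries without overlap, and with TMM scaling both lay below 2D-2D. With scaling by library size alone, 3D-3D replicate 3 lay above every 2D-2D library. Against 2D-2D the log2 change of Ldha was -0.41 (SE 0.11, adjusted p = 0.00162) in 3D-3D, but -0.09 (adjusted p = 0.368) with scaling by library size alone. In 2D-3D it was -0.97 (SE 0.11, adjusted p = 6.44e-08), and -0.70 with that scaling. Slc16a3 encodes MCT4, the transporter that exports lactate. It had 371, 335, 636 and 412 CPM in the 3D-3D libraries and 359, 284, 262 and 220.5 CPM in the 2D-3D libraries. On plates, Slc16a3 had 489, 600.3, 579 and 581 CPM in the 3D-2D libraries and 664, 709, 709 and 619.8 CPM in the 2D-2D libraries. The 3D-3D range overlapped that of 2D-2D through replicate 3, and the 2D-3D range did not. Its change against 2D-2D was -0.64 (SE 0.15, adjusted p = 0.000926) in 3D-3D and -1.26 (SE 0.16, adjusted p = 3.78e-07) in 2D-3D, and without 3D-3D replicate 3 the first was -0.87 (adjusted p = 2.04e-06).

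Aldoa, the main aldolase of most tissues, had 2982, 2737, 4005 and 3449 CPM in the 3D-3D libraries and 3437, 3033, 2875 and 2351 CPM in the 2D-3D libraries. On plates, Aldoa had 3105, 3918, 3633 and 3656 CPM in the 3D-2D libraries and 3868, 4007, 4495 and 3758 CPM in the 2D-2D libraries. The change of Aldoa in 3D-3D against 2D-2D was -0.30 (SE 0.12, adjusted p = 0.0226). That direction turned to 0.01 (adjusted p = 0.92) with scaling by library size alone, and the call was also lost without 3D-3D replicate 1 or replicate 2 and without 2D-2D replicate 3. Pgk1, the first enzyme of the pathway to make ATP, had 807, 795, 1336 and 912 CPM in the 3D-3D libraries and 966, 743, 719 and 494 CPM in the 2D-3D libraries. On plates, Pgk1 had 905, 917, 895 and 886 CPM in the 3D-2D libraries and 1003, 1049, 1077 and 924 CPM in the 2D-2D libraries. Its 3D-3D and 2D-2D libraries overlapped, with a log2 change of -0.09 (SE 0.16, adjusted p = 0.626). The 2D-3D group was lower than 2D-2D, at -0.47 (SE 0.16, adjusted p = 0.0107), which became -0.19 (adjusted p = 0.234) with scaling by library size alone. Of the other enzymes, Eno1 (enolase) changed by -0.76 (SE 0.14, adjusted p = 8.44e-05) in 3D-3D and by -1.04 (SE 0.14, adjusted p = 1.93e-06) in 2D-3D. Tpi1, triose phosphate isomerase, changed by -0.52 and -0.93, and Hk1, the hexokinase of most tissues, by -0.59 and -0.85, all with an adjusted p below 0.05. With library size alone, Hk1 and Tpi1 lost the call in 3D-3D, at -0.28 and -0.21, and Eno1 kept it at -0.44 (adjusted p = 0.00422). Without 3D-3D replicate 3, Hk1 was at -0.95 (adjusted p = 8.44e-08). Gpi1, Pfkl, Pfkm, Pfkp and Pgam1, which act at the sugar phosphate and phosphoglycerate steps, lay between -0.20 and 0.12 in 3D-3D and did not pass. Without 3D-3D replicate 3, Pfkp was at -0.65 (adjusted p = 1.81e-05) and Pgam1 at -0.26 (adjusted p = 0.0261), and the others still did not pass. In 2D-3D, Pfkl and Pgam1 were lower than in 2D-2D at an adjusted p below 0.05. Both lost that call with scaling by library size alone. Gapdh, Eno1, Ldha, Pgk1, Pgam1, Pkm, Tpi1 and Aldoa have many near-identical pseudogene copies, so their counts are uncertain to that extent. Exons of Gapdh, Tpi1, Aldoa, Pfkm and Pfkp also overlap exons of other genes with values on the opposite strand, and whether strand was used in counting is not given in the sources used here.

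**Figure D3:**
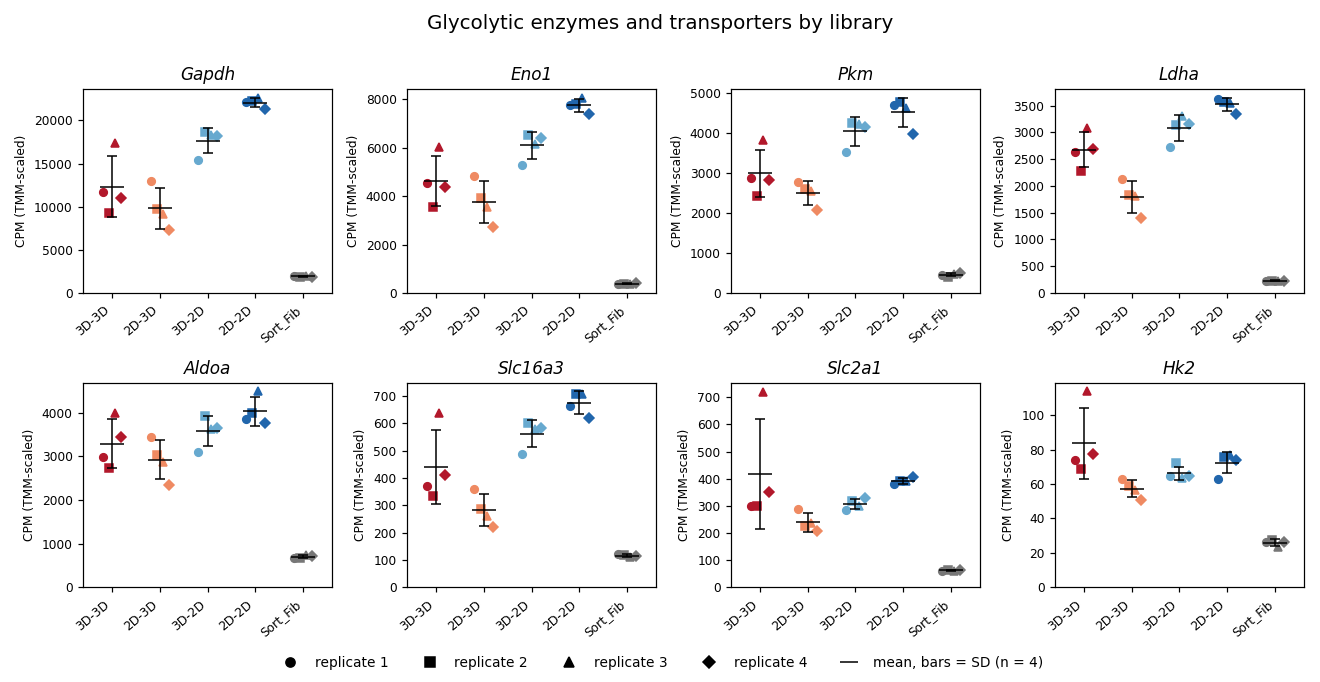
CPM of 8 transporters and glycolytic enzymes in each of the 20 libraries (points, marker shape by replicate, linear axis from 0), with group means and SD bars (n = 4). For Gapdh, Eno1 and Pkm all gel libraries sit below all 2D-2D libraries, and for Slc2a1 the triangle of 3D-3D replicate 3 sits alone at 720.3 CPM.

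Glucose entry showed more dependence on single libraries. Slc2a1 encodes GLUT1, the glucose transporter of most cultured cells. It had 298, 299.9, 720.3 and 349 CPM in the 3D-3D libraries and 287, 226, 235 and 207 CPM in the 2D-3D libraries. On plates, Slc2a1 had 284, 316, 299 and 328 CPM in the 3D-2D libraries and 380.5, 390.1, 391 and 405 CPM in the 2D-2D libraries. All 2D-3D libraries were below all 2D-2D libraries, and the 3D-3D libraries other than replicate 3 were too. The 2D-3D change against 2D-2D was -0.71 (SE 0.19, adjusted p = 0.00234). The 3D-3D change against 2D-2D was 0.07 (SE 0.19, adjusted p = 0.733) with all libraries and turned to -0.32 (adjusted p = 0.00455) without replicate 3. Slc2a3 encodes GLUT3, a transporter of high affinity known from neurons and leukocytes. It had 7.61, 10.5, 32.9 and 10.6 CPM in the 3D-3D libraries and 6.81, 4.57, 4.52 and 2.93 CPM in the 2D-3D libraries. On plates, Slc2a3 had 5.07, 4.13, 4.299 and 4.94 CPM in the 3D-2D libraries and 4.18, 4.63, 4.51 and 5.83 CPM in the 2D-2D libraries. All 4 3D-3D libraries lay above the other cultured libraries. Slc2a3 was higher in 3D-3D than in 2D-2D by 1.67 (SE 0.34, adjusted p = 0.00018), and by 1.00 (adjusted p = 0.000267) without replicate 3. Hk2, the inducible hexokinase, had 73.97, 68.9, 114 and 77.8 CPM in the 3D-3D libraries and 63.1, 58.9, 56.6 and 50.8 CPM in the 2D-3D libraries. On plates, Hk2 had 64.5, 72.1, 63.6 and 64.5 CPM in the 3D-2D libraries and 63.2, 75.8, 76.99 and 74.00 CPM in the 2D-2D libraries. Its 3D-3D libraries overlapped those of 2D-2D, with a change of 0.19 (SE 0.12, adjusted p = 0.143). In 2D-3D the change was -0.34 (SE 0.12, adjusted p = 0.0154), and -0.06 with library size alone, and the call was also lost without 2D-3D replicate 4.

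Aldoc and Eno2, minor isozymes of aldolase and enolase, were higher in both gel groups than in 2D-2D. Aldoc, an aldolase known from brain and as a HIF target, had 42.5, 33.7, 64.4 and 38.5 CPM in the 3D-3D libraries and 35.2, 33.2, 25.99 and 22.8 CPM in the 2D-3D libraries. On plates, Aldoc had 13.8, 18.3, 17.3 and 18.2 CPM in the 3D-2D libraries and 9.34, 7.37, 8.91 and 9.901 CPM in the 2D-2D libraries. By mean level 3D-3D was highest, then 2D-3D, then 3D-2D, and 2D-2D was lowest; 3D-3D overlapped only 2D-3D. Its change against 2D-2D was 2.32 (SE 0.18, adjusted p = 4e-10) in 3D-3D and 1.72 (SE 0.18, adjusted p = 3.6e-08) in 2D-3D. Eno2, the enolase known from neurons, had 20.1, 24.6, 26.1 and 24.3 CPM in the 3D-3D libraries and 19.9, 17.5, 21.8 and 26.5 CPM in the 2D-3D libraries. On plates, Eno2 had 7.19, 9.95, 9.196 and 7.87 CPM in the 3D-2D libraries and 12.01, 10.7, 13.2 and 12.7 CPM in the 2D-2D libraries. Both gel groups lay above both plate groups, with changes against 2D-2D of 0.96 (SE 0.13, adjusted p = 1.37e-06) in 3D-3D and 0.82 (SE 0.13, adjusted p = 1.09e-05) in 2D-3D. These isozymes remained small beside the main ones. Per kilobase of exon, Aldoc was 1.19% ± 0.189 of the summed aldolase level in 3D-3D, 0.883% ± 0.0711 in 2D-3D, 0.419% ± 0.0193 in 3D-2D and 0.197% ± 0.0329 in 2D-2D (SD, n = 4). Eno2 was 0.604% ± 0.139 of the summed enolase level in 3D-3D and 0.179% ± 0.0172 in 2D-2D. Hk2 was 42.5% ± 4.10 of the hexokinase level per kilobase in 3D-3D, 37.1% ± 1.71 in 2D-3D, 32.2% ± 1.77 in 3D-2D and 29.1% ± 1.50 in 2D-2D. These shares depend on the length used. By the longest transcript Hk2 was 28.7% in 3D-3D, 24.2% in 2D-3D, 20.5% in 3D-2D and 18.2% in 2D-2D. By that length Eno2 was 0.384% in 3D-3D and 0.114% in 2D-2D, and Aldoc was 0.742% in 3D-3D, 0.552% in 2D-3D, 0.261% in 3D-2D and 0.123% in 2D-2D. The phosphofructokinase mix varied less, with Pfkl, the liver type, at 85.5% ± 0.949 in 3D-3D and 84.4% ± 0.494 in 2D-2D.

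All 3 regulators of the pathway were higher in both gel groups than in 2D-2D. Pdk1, the kinase that holds pyruvate dehydrogenase inactive, had 103, 109, 174 and 124 CPM in the 3D-3D libraries and 123, 109, 84.4 and 81.2 CPM in the 2D-3D libraries. On plates, Pdk1 had 70.2, 62.2, 63.6 and 66.6 CPM in the 3D-2D libraries and 69.1, 66.4, 62.8 and 74.3 CPM in the 2D-2D libraries. Both gel groups lay above 2D-2D without overlap, by 0.89 (SE 0.14, adjusted p = 9.5e-06) in 3D-3D and 0.55 (SE 0.14, adjusted p = 0.00164) in 2D-3D. Pfkfb4 makes and removes fructose 2,6-bisphosphate, the activator of phosphofructokinase. It had 23.4, 23.7, 31.8 and 18.4 CPM in the 3D-3D libraries and 22.3, 26.5, 23.2 and 25.7 CPM in the 2D-3D libraries. On plates, Pfkfb4 had 20.8, 22.3, 25.1 and 23.1 CPM in the 3D-2D libraries and 13.2, 16.2, 13.9 and 14.4 CPM in the 2D-2D libraries. Only 2D-2D stood apart, below the other 3 groups. The changes against 2D-2D were 0.74 (SE 0.13, adjusted p = 2.66e-05) in 3D-3D, 0.76 (SE 0.13, adjusted p = 2.01e-05) in 2D-3D and 0.65 (SE 0.13, adjusted p = 0.000732) in 3D-2D. Pfkfb3, the related enzyme that mostly makes the activator, averaged 112 ± 43.3 CPM in 3D-3D, 99.2 ± 13.5 in 2D-3D, 56.5 ± 2.95 in 3D-2D and 68.9 ± 2.93 in 2D-2D (SD, n = 4). Its change against 2D-2D was 0.68 (SE 0.16, adjusted p = 0.000873) in 3D-3D, and 0.39 (adjusted p = 0.00177) without replicate 3.

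Of the HIF alpha subunits, Hif1a had 499.6, 514, 472 and 531 CPM in the 3D-3D libraries and 443, 503, 471 and 484 CPM in the 2D-3D libraries. On plates, Hif1a had 388, 316, 299.8 and 333 CPM in the 3D-2D libraries and 315, 338, 394 and 431 CPM in the 2D-2D libraries. Every gel library lay above every 2D-2D library. The change against 2D-2D was 0.44 (SE 0.10, adjusted p = 0.000396) in 3D-3D and 0.36 (SE 0.10, adjusted p = 0.00216) in 2D-3D. Epas1 had 53.00, 51.8, 41.1 and 46.3 CPM in the 3D-3D libraries and 21.1, 24.8, 19.6 and 33.3 CPM in the 2D-3D libraries. On plates, Epas1 had 29.4, 44.5, 34.4 and 37.6 CPM in the 3D-2D libraries and 18.1, 21.3, 19.8 and 22.5 CPM in the 2D-2D libraries. All 3D-3D libraries lay above all 2D-3D and 2D-2D libraries, and replicate 3 was the lowest of the 4. Epas1 was higher in 3D-3D than in 2D-2D by 1.22 (SE 0.14, adjusted p = 2.11e-07). Per kilobase of exon, Hif1a stood at 85.5 ± 4.24 CPM and Epas1 at 8.596 ± 0.977 CPM in 3D-3D, and at 62.6 ± 9.01 and 3.66 ± 0.341 CPM in 2D-2D (SD, n = 4). Epas1 is strongly expressed in endothelium. The endothelial marker share was 0.0098% of counts in 3D-3D, with a range of 0.00818% to 0.0116%, and 0.00134% in 2D-2D, with a range of 0.00133% to 0.00137%. It was 0.00289% in 2D-3D and 0.00147% in 3D-2D. Of the 10 endothelial markers 9 were higher in 3D-3D than in 2D-2D, none was at 0 in either group, and their part in the level of Epas1 was not tested.

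The oxygen sensors differed from each other. Egln3 encodes PHD3, a prolyl hydroxylase that is itself a HIF target. It had 164, 144, 514 and 176 CPM in the 3D-3D libraries and 129, 77.2, 62.7 and 40.1 CPM in the 2D-3D libraries. On plates, Egln3 had 78.3, 75.9, 73.8 and 80.6 CPM in the 3D-2D libraries and 80.9, 86.1, 80.98 and 82.7 CPM in the 2D-2D libraries. All 3D-3D libraries lay above all other cultured libraries, and 2D-3D spread on both sides of 2D-2D. Egln3 was higher in 3D-3D than in 2D-2D by 1.58 (SE 0.32, adjusted p = 0.000189), and by 0.96 (adjusted p = 0.000451) without replicate 3, while 2D-3D differed from 2D-2D by -0.10 (SE 0.32, adjusted p = 0.793). Egln1 encodes PHD2, the main sensor. It averaged 125 ± 56.1 CPM in 3D-3D, 94.05 ± 23.1 in 2D-3D, 93.7 ± 5.03 in 3D-2D and 122 ± 8.51 in 2D-2D (SD, n = 4). Its change in 3D-3D against 2D-2D was 0.02 (SE 0.20, adjusted p = 0.938) and turned to -0.33 (adjusted p = 0.0289) without replicate 3. Per kilobase, Egln3 made up 71.2% ± 4.10 of the sum of both sensors in 3D-3D, 50.9% ± 6.46 in 2D-3D, 52.7% ± 1.33 in 3D-2D and 47.9% ± 1.73 in 2D-2D. Vhl, the subunit that marks hydroxylated HIF for degradation, changed by 0.40 (SE 0.15, adjusted p = 0.0256) in 3D-3D against 2D-2D, and by 0.14 (adjusted p = 0.233) without replicate 3, and its call was also lost without 2D-2D replicate 3 or replicate 4.

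**Figure D4:**
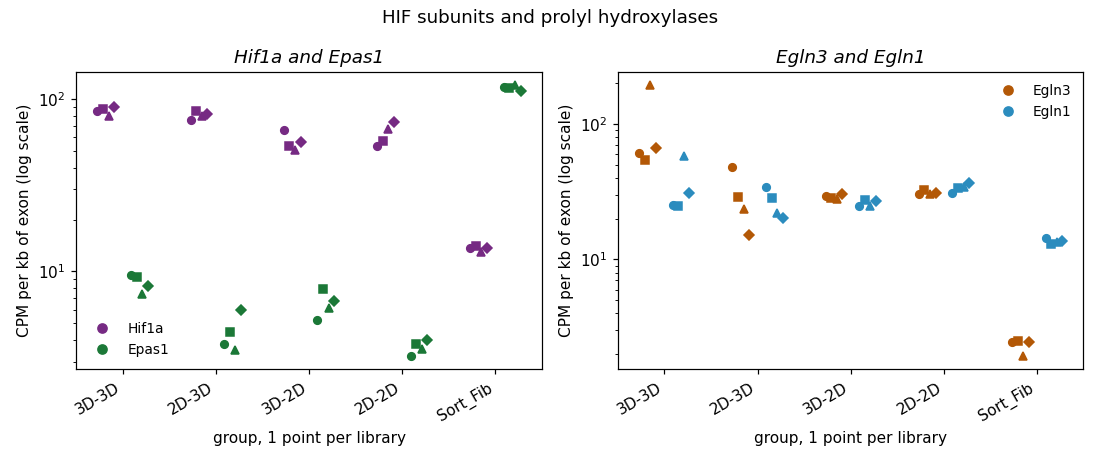
CPM per kilobase of exon (log axis) of the HIF alpha subunits Hif1a and Epas1 (left) and of the prolyl hydroxylases Egln3 and Egln1 (right), 1 point per library, marker shape by replicate. Hif1a lies above Epas1 in all 16 cultured libraries and below it in the 4 sorted ones, and Egln3 is highest in 3D-3D.

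The DNA core bound by HIF is ACGTG or GCGTG, read on either strand (CACGT or CACGC on the other). RefSeq promoter windows of 300 bases, from 250 before to 50 after each gene start on GRCm38.p6, were on hand for 34 of the 37 genes, in 55 windows, and not for Ndrg1, Slc2a3 and Epas1. A core was present in 43 of the 55 windows (78.2%), against 43.8% of the 32851 windows of all genes. ACGTG was in 50.9% of the windows of the 34 genes and in 19.6% of all windows, and GCGTG in 54.5% and 32.4%; 1 stretch can hold both, as where CACGCGTG overlaps. By gene, a core was in any window of 13 of 15 genes higher in 3D-3D than in 2D-2D, of 7 of 8 lower and of 10 of 11 not called, against 46.7% of all genes, so that it was about as common in each of the 3 sets. A match is a run of letters and not a binding site. Below, 5 promoters of HIF targets that were higher in 3D-3D than in 2D-2D are set beside that of Ldha, an enzyme that was lower there, because they hold cores alike; capitals mark the cores, and each is written 5′ to 3′ on the strand of its gene. The Ankrd37 window is chr8:45999801-46000100 on the minus strand, Bnip3 is chr7:138909457-138909756 on the minus strand, and Car9 is chr4:43506776-43507075 on the plus strand. Ddit4 is chr10:59951721-59952020 on the minus strand, Egln3 is chr12:54203825-54204124 on the minus strand, and Ldha is chr7:46845554-46845853 on the plus strand.
Ankrd37: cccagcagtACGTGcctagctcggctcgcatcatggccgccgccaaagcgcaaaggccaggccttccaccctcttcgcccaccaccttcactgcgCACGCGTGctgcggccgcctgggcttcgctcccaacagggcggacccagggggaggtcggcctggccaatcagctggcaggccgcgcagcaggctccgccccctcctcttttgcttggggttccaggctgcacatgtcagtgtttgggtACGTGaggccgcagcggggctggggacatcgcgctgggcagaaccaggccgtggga
Bnip3: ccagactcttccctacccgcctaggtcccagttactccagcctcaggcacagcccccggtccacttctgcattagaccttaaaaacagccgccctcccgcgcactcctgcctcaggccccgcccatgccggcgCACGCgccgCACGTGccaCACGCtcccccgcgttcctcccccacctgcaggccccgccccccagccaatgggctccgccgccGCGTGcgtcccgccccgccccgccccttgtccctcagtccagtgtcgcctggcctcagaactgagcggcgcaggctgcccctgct
Car9: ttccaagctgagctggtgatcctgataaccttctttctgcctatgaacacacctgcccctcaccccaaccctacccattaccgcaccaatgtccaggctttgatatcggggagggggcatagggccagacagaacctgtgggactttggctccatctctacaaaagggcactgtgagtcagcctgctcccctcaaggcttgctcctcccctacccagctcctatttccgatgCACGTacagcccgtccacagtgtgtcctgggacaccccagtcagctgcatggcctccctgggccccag
Ddit4: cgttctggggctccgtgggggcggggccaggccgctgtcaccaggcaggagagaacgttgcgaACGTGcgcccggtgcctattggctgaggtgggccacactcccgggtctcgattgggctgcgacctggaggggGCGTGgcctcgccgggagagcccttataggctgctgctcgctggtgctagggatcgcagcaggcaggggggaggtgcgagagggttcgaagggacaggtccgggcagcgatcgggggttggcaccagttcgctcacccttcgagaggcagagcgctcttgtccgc
Egln3: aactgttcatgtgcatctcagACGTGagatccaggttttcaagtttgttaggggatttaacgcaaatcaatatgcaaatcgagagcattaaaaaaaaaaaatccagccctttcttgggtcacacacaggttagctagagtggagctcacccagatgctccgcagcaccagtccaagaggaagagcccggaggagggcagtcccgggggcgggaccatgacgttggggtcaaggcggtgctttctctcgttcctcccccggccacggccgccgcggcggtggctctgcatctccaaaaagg
Ldha: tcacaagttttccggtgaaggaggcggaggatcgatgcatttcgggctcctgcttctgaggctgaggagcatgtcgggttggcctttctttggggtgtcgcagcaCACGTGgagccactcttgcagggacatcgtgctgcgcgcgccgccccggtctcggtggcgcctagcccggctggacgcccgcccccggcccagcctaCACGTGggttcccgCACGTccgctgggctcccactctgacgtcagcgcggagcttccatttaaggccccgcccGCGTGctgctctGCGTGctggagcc

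The 8 other HIF targets called higher in 3D-3D than in 2D-2D changed by 1.13 to 2.40 on the log2 scale. Ankrd37, an ankyrin repeat gene known as a HIF target, had 11.7, 8.87, 24.2 and 12.7 CPM in the 3D-3D libraries and 13.6, 8.58, 8.98 and 6.32 CPM in the 2D-3D libraries. On plates, Ankrd37 had 2.01, 2.01, 2.56 and 2.17 CPM in the 3D-2D libraries and 2.73, 3.03, 2.49 and 2.49 CPM in the 2D-2D libraries. Every gel library lay above every plate library. The change against 2D-2D was 2.40 (SE 0.27, adjusted p = 9.91e-08) in 3D-3D and 1.80 (SE 0.27, adjusted p = 5.58e-06) in 2D-3D, and the first was 2.03 (adjusted p = 3.44e-08) without replicate 3. Exons of Ankrd37 overlap those of Ufsp2 on the opposite strand, which had more counts, so its level is uncertain. Car9, a carbonic anhydrase of the cell surface, was low. It had 4.58, 3.601, 15.2 and 4.93 CPM in the 3D-3D libraries and 8.76, 5.08, 4.13 and 4.696 CPM in the 2D-3D libraries. On plates, Car9 had 1.96, 2.12, 2.78 and 2.39 CPM in the 3D-2D libraries and 2.38, 1.199, 1.56 and 1.87 CPM in the 2D-2D libraries. The gel libraries lay above all 2D-2D libraries, by 1.99 (SE 0.39, adjusted p = 0.000106) in 3D-3D, 1.31 (adjusted p = 0.000218) without replicate 3, and 1.69 (SE 0.39, adjusted p = 0.000609) in 2D-3D.

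Ndrg1, a gene induced by hypoxia and stress, had 287, 276, 761 and 361 CPM in the 3D-3D libraries and 287, 168, 112 and 102 CPM in the 2D-3D libraries. On plates, Ndrg1 had 72.8, 88.2, 79.6 and 83.9 CPM in the 3D-2D libraries and 134, 129, 134 and 132 CPM in the 2D-2D libraries. The 4 3D-3D libraries lay above both plate groups, and the highest 2D-3D library, replicate 1, reached the level of the lower 3D-3D ones. Ndrg1 was higher in 3D-3D than in 2D-2D by 1.65 (SE 0.28, adjusted p = 2.78e-05), and by 1.21 (adjusted p = 5.23e-05) without replicate 3, while 2D-3D differed from 2D-2D by 0.34 (SE 0.28, adjusted p = 0.284). Bnip3, a mitochondrial protein that promotes removal of mitochondria, had 269, 252, 599 and 341 CPM in the 3D-3D libraries and 357, 264, 244 and 176 CPM in the 2D-3D libraries. On plates, Bnip3 had 120.5, 101, 101 and 115 CPM in the 3D-2D libraries and 176, 152, 159 and 172 CPM in the 2D-2D libraries. Its 3D-3D libraries lay above both plate groups and overlapped 2D-3D. The change against 2D-2D was 1.13 (SE 0.21, adjusted p = 6.89e-05) in 3D-3D, 0.79 (adjusted p = 0.000117) without replicate 3, and 0.66 (SE 0.21, adjusted p = 0.00825) in 2D-3D, where the call was lost without 2D-3D replicate 1.

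Ddit4 (REDD1), an inhibitor of mTORC1, had 189.7, 185, 229 and 199.6 CPM in the 3D-3D libraries and 106, 97.99, 111 and 94.99 CPM in the 2D-3D libraries. On plates, Ddit4 had 33.7, 42.3, 36.4 and 37.9 CPM in the 3D-2D libraries and 58.00, 52.7, 40.95 and 50.3 CPM in the 2D-2D libraries. Its groups fell into steps, with every 3D-3D library above every 2D-3D library and every 2D-3D library above both plate groups. The change against 2D-2D was 1.98 (SE 0.10, adjusted p = 4.77e-13) in 3D-3D and 1.02 (SE 0.10, adjusted p = 1.04e-08) in 2D-3D, and replicate 3 mattered little, at 1.92 (adjusted p = 5.03e-13) without it. Hilpda, which slows the breakdown of fat droplets, had 75.2, 60.4, 175 and 66.2 CPM in the 3D-3D libraries and 56.3, 42.1, 43.1 and 38.9 CPM in the 2D-3D libraries. On plates, Hilpda had 25.1, 22.8, 26.2 and 21.00 CPM in the 3D-2D libraries and 22.7, 19.8, 19.8 and 20.8 CPM in the 2D-2D libraries. It showed the same order without overlap between 3D-3D and 2D-3D, and its change against 2D-2D was 2.16 (SE 0.24, adjusted p = 8.16e-08) in 3D-3D, 1.69 (adjusted p = 6.59e-11) without replicate 3, and 1.12 (SE 0.24, adjusted p = 0.000287) in 2D-3D.

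Kdm3a, a histone H3 lysine 9 demethylase, had 73.04, 73.7, 102 and 84.5 CPM in the 3D-3D libraries and 76.8, 75.7, 69.5 and 82.1 CPM in the 2D-3D libraries. On plates, Kdm3a had 39.8, 29.6, 30.6 and 29.8 CPM in the 3D-2D libraries and 29.9, 31.4, 36.5 and 35.8 CPM in the 2D-2D libraries. Both gel groups overlapped each other and lay above both plate groups, by 1.31 (SE 0.11, adjusted p = 2.19e-09) in 3D-3D and 1.19 (SE 0.11, adjusted p = 9.85e-09) in 2D-3D against 2D-2D. Mxi1, a repressor that opposes MYC, had 62.9, 66.04, 129 and 78.1 CPM in the 3D-3D libraries and 86.7, 70.6, 62.4 and 59.7 CPM in the 2D-3D libraries. On plates, Mxi1 had 25.3, 25.9, 24.8 and 25.99 CPM in the 3D-2D libraries and 29.2, 30.4, 32.3 and 35.1 CPM in the 2D-2D libraries. Its pattern was like that of Kdm3a, with changes of 1.39 (SE 0.17, adjusted p = 2.82e-07) in 3D-3D and 1.14 (SE 0.17, adjusted p = 4.24e-06) in 2D-3D. Higd1a and Ak4 were the HIF targets not called higher in 3D-3D. Higd1a, a mitochondrial inner membrane protein, differed from 2D-2D by -0.19 (SE 0.13, adjusted p = 0.208) in 3D-3D and -0.36 (SE 0.13, adjusted p = 0.0209) in 2D-3D. Ak4, a mitochondrial adenylate kinase, differed by -0.03 (SE 0.19, adjusted p = 0.888) in 3D-3D and -0.59 (SE 0.19, adjusted p = 0.00844) in 2D-3D. Both lost the call in 2D-3D with scaling by library size alone, at -0.08 and -0.32, and Higd1a also without 2D-3D replicate 3 or replicate 4. In 3D-3D without replicate 3, Higd1a was at -0.37 (adjusted p = 0.00639).

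**Figure D5:**
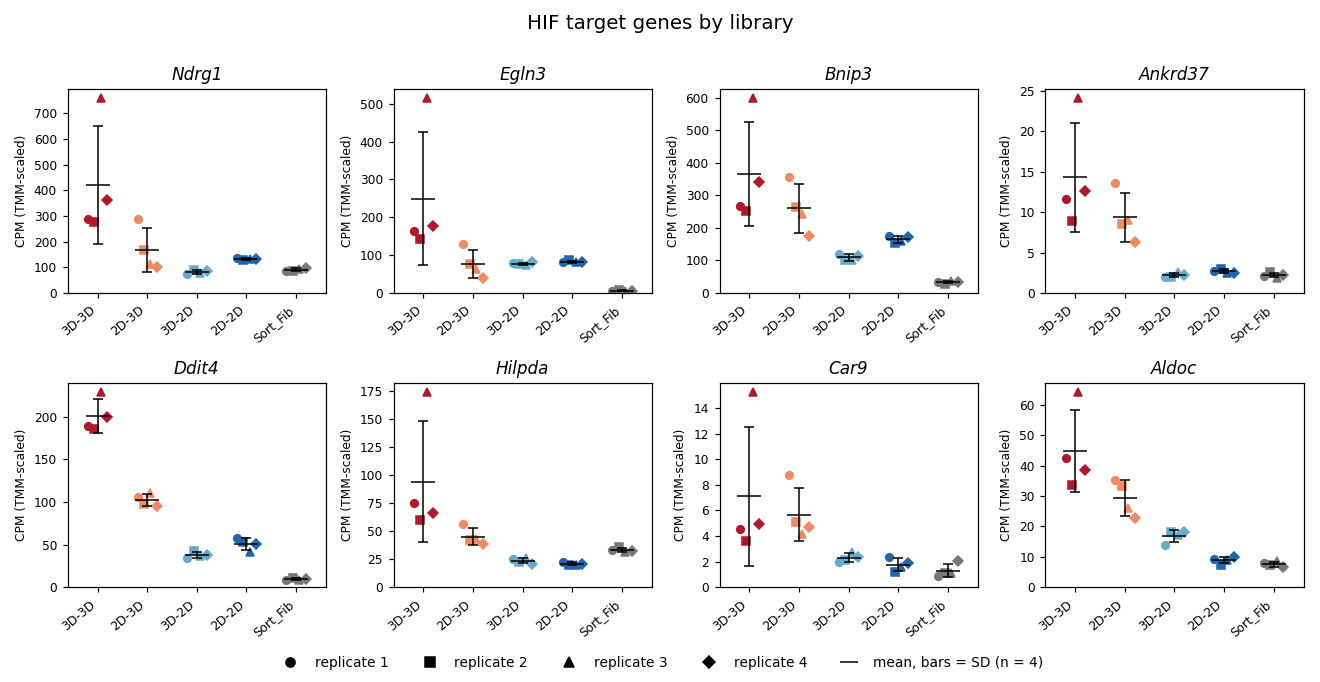
CPM of 8 HIF target genes in each of the 20 libraries (points, marker shape by replicate, linear axis from 0), with group means and SD bars (n = 4). The triangle of 3D-3D replicate 3 is the highest point in every panel, and the other 3D-3D libraries still sit above all 2D-2D libraries.

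Among cells that ended in gel, some genes of both pathways were higher where the first culture had been in gel too. Comparing 3D-3D with 2D-3D, 14 of the 37 genes were higher in 3D-3D and none lower, where 15.0% of all genes were higher and 12.7% lower. The median change was 0.35, and that of all genes was -0.01; without 3D-3D replicate 3 the median of the 37 was 0.13. By role, 8 of 19 transporters and enzymes, 2 of 5 HIF subunits and sensors, 4 of 10 other HIF targets and none of the 3 regulators were higher. The largest changes were in Slc2a3 (1.69, SE 0.34, adjusted p = 0.000565) and Egln3 (1.68, SE 0.32, adjusted p = 0.000427). Ndrg1 was higher by 1.32 (SE 0.28, adjusted p = 0.00115), Hilpda by 1.04 (SE 0.23, adjusted p = 0.00133) and Ddit4 by 0.96 (SE 0.10, adjusted p = 1.42e-07). Epas1 was higher by 0.95 (SE 0.14, adjusted p = 2.62e-05), Slc2a1 by 0.79 (SE 0.19, adjusted p = 0.00342) and Ldha by 0.56 (SE 0.11, adjusted p = 0.000309). In contrast to these, the difference did not pass for Kdm3a (0.12, SE 0.11, adjusted p = 0.461), Mxi1 (0.25, SE 0.16, adjusted p = 0.277) or Car9 (0.30, SE 0.34, adjusted p = 0.574). Without 3D-3D replicate 3 there were 11 higher and none lower, where 15.8% of all genes were higher and 13.5% lower, and Ak4, Pfkl and Tpi1 were lost. The same 3 calls were lost without 2D-3D replicate 3 or replicate 4. Without 3D-3D replicate 3, Egln3 stood at 1.06 (adjusted p = 0.000611), Slc2a3 at 1.02 (adjusted p = 0.000663), Ndrg1 at 0.87 (adjusted p = 0.00412), Hilpda at 0.57 (adjusted p = 0.00051) and Slc2a1 at 0.40 (adjusted p = 0.0024). Leaving out 3D-3D replicate 2 in its place gave 22 higher, where 1904 of 13811 genes tested were higher. The endothelial markers, 8 of 10 higher in 3D-3D, and the airway and alveolar markers, 9 of 9 tested higher, moved the same way. So did 3 of 3 tested lymphocyte, 2 of 3 tested neutrophil and 3 of 5 proliferation markers. Of 12 macrophage markers 8 were lower and 1 higher, and of 10 fibroblast markers 5 were lower and 3 higher. Lymphocyte markers made up 0.0037% to 0.00571% of counts in 3D-3D and 1e-05% to 5.45e-05% in 2D-3D. The part of the markers was not tested.

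Among cells that ended on plates, the 37 genes differed with the first culture about as often as all genes. Between 3D-2D and 2D-2D, 3 of the 37 genes were higher and 4 lower, where 9.74% of all genes were higher and 10.6% lower. Aldoc was higher in 3D-2D by 0.92 (SE 0.18, adjusted p = 0.000909), Epas1 by 0.82 (SE 0.15, adjusted p = 0.000251) and Pfkfb4 by 0.65. Bnip3 was lower, at -0.60 (SE 0.21, adjusted p = 0.0489), as were Eno2 at -0.52 (SE 0.14, adjusted p = 0.00914), Ddit4 at -0.44 (SE 0.10, adjusted p = 0.00294) and Higd1a at -0.39 (SE 0.13, adjusted p = 0.0472). Bnip3 and Higd1a did not pass with RLE size factors, with library size alone or with any 1 of the 8 libraries left out, which left 2 lower genes, and without 3D-2D replicate 1 Eno2 was lost too. In 3D-2D 11 of 12 macrophage, 6 of 9 tested epithelial, 2 of 3 neutrophil and 3 of 3 lymphocyte markers were higher, and 6 of 10 fibroblast markers lower. None of the 10 endothelial markers was called, with a median change of 0.57. They made up 0.00147% of counts in 3D-2D and 0.00134% in 2D-2D. Macrophage markers made up 1.1% to 1.2% of counts in 3D-2D and 0.639% to 0.834% in 2D-2D, and their part was not tested. Ndrg1 differed by -0.72 (SE 0.28, adjusted p = 0.081) and Egln3 by -0.11 (SE 0.32, adjusted p = 0.852).

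Whether the gel effect depended on the first culture was tested as an interaction, the change of 3D-3D over 3D-2D less that of 2D-3D over 2D-2D. It was positive in 16 of the 37 genes and negative in 1 (Pfkfb4), where 10.3% of all genes were positive and 9.1% negative. Ndrg1 had the largest value, 2.03 (SE 0.40, adjusted p = 0.000908), followed by Egln3 at 1.79 (SE 0.45, adjusted p = 0.00742) and Slc2a3 at 1.76 (SE 0.49, adjusted p = 0.0142). Ndrg1 was 5.18 times as high in 3D-3D as in 3D-2D, and 1.26 times as high in 2D-3D as in 2D-2D. Egln3 was 3.22 times as high in 3D-3D as in 3D-2D, and 0.934 times as high in 2D-3D as in 2D-2D. Ddit4 (1.40, SE 0.14, adjusted p = 4.31e-07), Slc2a1 (1.15, SE 0.27, adjusted p = 0.00412) and Bnip3 (1.07, SE 0.30, adjusted p = 0.0133) also passed. For Slc2a1 the 2 effects were opposite in sign, 0.44 after gel and -0.71 after plates. The first rested on 3D-3D replicate 3, and without it was 0.05 (adjusted p = 0.676). Its call was also lost with RLE size factors, DESeq2, the replicate block (0.38, adjusted p = 0.0709) and without any 1 of the 3D-2D libraries. The interaction of Slc2a1 was 0.76 (adjusted p = 0.000149) without 3D-3D replicate 3. Without 3D-3D replicate 3 the counts were 13 positive and 1 negative, where 1517 of 13815 genes tested were positive and 1396 negative, with Eno1, Gapdh and Higd1a lost, and Ndrg1 at 1.59 (adjusted p = 0.000578), Egln3 at 1.17 (adjusted p = 0.00623) and Slc2a3 at 1.09 (adjusted p = 0.0106). Other libraries mattered too. Without 3D-2D replicate 1, 11 were positive, where 1155 of 13905 genes tested were positive. Without 2D-3D replicate 1, 23 were positive, where 1392 of 13881 genes tested were positive. Markers moved with the interaction as well, with 10 of 12 macrophage markers negative (median -1.23) and 5 of 10 endothelial (1.42) and 4 of 9 tested epithelial markers (1.54) positive, and their part was not tested.

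Sorted cells, which had not been cultured, had far less RNA of the glycolytic enzymes. Of the 37 genes, 31 were higher and 3 lower in 3D-3D than in sorted cells, where 38.5% of the 14715 genes tested were higher and 39.3% lower. In 2D-3D 29 were higher and 5 lower, against 38.2% and 39.9% of all genes. In 3D-2D 24 were higher and 7 lower, against 38.1% and 45.8%, and in 2D-2D 24 were higher and 7 lower, against 38.5% and 46.1%. Without 3D-3D replicate 3, 31 were higher and 5 lower in 3D-3D, where 37.9% of all genes were higher and 39.7% lower. The 19 transporters and enzymes summed to 4895, 4729, 5102 and 5002 CPM in the sorted libraries, below every cultured library. Scaling by library size alone moved the median of all genes by -0.32 in 2D-2D and -0.24 in 3D-2D against sorted cells. In the sorted libraries Gapdh had 1924, 1885, 2013 and 1836 CPM, Pkm had 445, 408, 466 and 510.4 CPM and Ldha had 233, 215, 233 and 233 CPM. Aldoa had 675, 669.6, 742 and 720.2 CPM, Pgk1 had 67.4, 64.1, 68.4 and 66.2 CPM and Slc16a3 had 122, 117, 111 and 113 CPM there. No sorted library reached the level of any cultured one for these 6 genes. In 2D-2D against sorted cells Eno1 was higher by 4.31 (SE 0.16, adjusted p = 5.1e-18), Ldha by 3.95 (SE 0.11, adjusted p = 5.95e-20) and Gapdh by 3.53 (SE 0.16, adjusted p = 7.19e-16). Ak4 was low in sorted cells, at 0.935 ± 0.3796 CPM (SD, n = 4), and higher in 3D-3D by 5.49 (SE 0.29, adjusted p = 1.93e-14).

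Transport and isozymes differed as well. In sorted cells Slc2a1 had 60.1, 62.3, 60.5 and 64.3 CPM and Slc2a3 had 23.1, 22.2, 20.3 and 21.5 CPM. Per kilobase, Slc2a3 was 1.63% ± 0.401 of the sum of both transporters in 3D-3D and 0.586% ± 0.0719 in 2D-2D, against 14.6% ± 0.811 in sorted cells. Neutrophil and lymphocyte markers were at 0.0673% and 0.0562% of counts in sorted cells, with no more than 0.00812% and 0.00571% in any cultured library; their part was not tested. Hk2 had 25.99, 27.7, 23.1 and 26.5 CPM, Aldoc had 7.87, 7.13, 8.56 and 6.56 CPM and Eno2 had 8.36, 10.1, 11.2 and 7.03 CPM in sorted cells. The Aldoc and Eno2 values overlapped those of 2D-2D. Of the phosphofructokinases, Pfkl was 85.5% ± 0.949 of the sum per kilobase in 3D-3D and 84.4% ± 0.494 in 2D-2D, against 31.1% ± 1.16 in sorted cells. There Pfkp, the platelet type, was the largest by this length, at 36.7% ± 1.83. By the longest transcript Pfkl was 37.2% and Pfkm 24.9% in sorted cells, so that Pfkl and Pfkp were then about equal. Pfkp was lower in 3D-3D than in sorted cells, at -0.60 (SE 0.20, adjusted p = 0.00871), and at -1.05 (adjusted p = 1.02e-09) without 3D-3D replicate 3.

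Sorted and cultured cells differed in which HIF alpha subunit was the more abundant. Hif1a had 81.2, 83.2, 76.9 and 80.3 CPM and Epas1 had 657, 650.0, 671 and 625 CPM in sorted cells. Every cultured library was above the sorted ones for Hif1a and below them for Epas1. Hif1a was higher by 2.65 (SE 0.09, adjusted p = 7.01e-18) in 3D-3D and 2.20 (SE 0.09, adjusted p = 1.02e-16) in 2D-2D. Epas1 was lower, at -3.76 (SE 0.14, adjusted p = 9.9e-18) in 3D-3D and -4.99 (SE 0.15, adjusted p = 1.03e-19) in 2D-2D. Of the 2 together, per kilobase, Epas1 made up 9.13% ± 0.836 in 3D-3D, 5.18% ± 1.11 in 2D-3D, 10.4% ± 2.29 in 3D-2D and 5.55% ± 0.538 in 2D-2D, against 89.5% ± 0.491 in sorted cells. All 10 endothelial markers were also lower in each cultured group than in sorted cells, where they made up 0.241% of counts. They made up 0.0098% in 3D-3D, 0.00289% in 2D-3D, 0.00147% in 3D-2D and 0.00134% in 2D-2D. The marker share was thus higher in 2D-3D than in 3D-2D, whereas the Epas1 share was higher in 3D-2D. The part of the markers was not tested.

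HIF targets differed in how sorted cells compared with plates. Ankrd37 had 2.16, 2.55, 1.91 and 2.26 CPM, Car9 had 0.906, 1.11, 1.13 and 2.03 CPM and Ndrg1 had 86.3, 86.3, 95.1 and 96.5 CPM in sorted cells. The Ankrd37 and Car9 values overlapped those of 2D-2D, which differed from sorted cells by 0.27 (SE 0.30, adjusted p = 0.408) and 0.45 (SE 0.45, adjusted p = 0.356). Egln3 had 6.55, 6.68, 5.16 and 6.56 CPM, Bnip3 had 34.1, 28.1, 35.6 and 32.6 CPM and Ddit4 had 8.57, 11.3, 8.06 and 9.53 CPM. For these 3 genes every cultured library was higher, by 5.32, 3.48 and 4.42 on the log2 scale in 3D-3D. Pdk1 had 14.6, 16.6, 13.7 and 16.7 CPM and Hilpda had 33.1, 35.6, 31.5 and 32.1 CPM, with Hilpda above the plate groups and below 2D-3D and 3D-3D. Kdm3a had 66.7, 68.7, 63.3 and 60.7 CPM, Mxi1 had 72.7, 65.3, 73.6 and 65.4 CPM and Pfkfb4 had 34.8, 36.6, 36.7 and 35.9 CPM in sorted cells. Kdm3a and Mxi1 in 2D-2D were lower than in sorted cells, at -0.96 (SE 0.11, adjusted p = 1.4e-08) and -1.13 (SE 0.16, adjusted p = 6.51e-07). In 3D-3D they differed from sorted cells by 0.36 (SE 0.10, adjusted p = 0.0031) and 0.28 (SE 0.15, adjusted p = 0.103).

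Further genes of both pathways were read from fixed lists. Of 35 other genes of glycolysis and its branches 30 were tested, and 10 were higher and 13 lower in 3D-3D than in 2D-2D, with a median of -0.12, where 38.6% of all genes were higher and 34.9% lower. Of 46 other genes of the HIF pathway 45 were tested, and 18 were higher and 14 lower, with a median of 0.11, which is near the share of all genes in each direction. Ppp1r3c, a glycogen-targeting subunit of protein phosphatase 1, averaged 19.2 ± 10.9 CPM in 3D-3D and 0.804 ± 0.236 in 2D-2D and was higher by 4.55 (SE 0.45, adjusted p = 1.33e-08). Stc1, a secreted glycoprotein, averaged 81.8 ± 7.099 CPM in 3D-3D and 11.5 ± 1.398 in 2D-2D and was higher by 2.82 (SE 0.11, adjusted p = 7.3e-15). Selenbp1, a selenium-binding protein, averaged 134 ± 140.5 and 17.4 ± 1.22 CPM in 3D-3D and 2D-2D, with a change of 2.92 (SE 0.50, adjusted p = 2.38e-05), and of 1.87 (adjusted p = 1.35e-05) without 3D-3D replicate 3. Eno3, the muscle enolase, was lower in 3D-3D, at -3.26 (SE 0.12, adjusted p = 4.92e-15). Adm, the vasodilator adrenomedullin, was lower, at -2.21 (SE 0.24, adjusted p = 5.08e-08). Adm is a HIF target and averaged 75.5 ± 27.8 CPM in 3D-3D against 347 ± 25.4 CPM in 2D-2D (SD, n = 4). In 2D-3D against 2D-2D, Ppp1r3c changed by 3.34 (SE 0.46, adjusted p = 1.49e-06) and Adm by -2.45 (SE 0.24, adjusted p = 1.33e-08).

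Among cells that ended in gel, 11 of the 45 other HIF pathway genes were higher and 2 lower in 3D-3D than in 2D-3D, with a median of 0.20, against 15.0% and 12.7% of all genes. Stc1 averaged 81.8 ± 7.099 CPM in 3D-3D and 19.7 ± 1.69 in 2D-3D and was higher by 2.04 (SE 0.10, adjusted p = 1.03e-11). Vegfa, the angiogenic growth factor, averaged 407 ± 111 and 189 ± 19.98 CPM in 3D-3D and 2D-3D and was higher by 1.09 (SE 0.13, adjusted p = 1.07e-06), with an interaction of 1.30 (SE 0.18, adjusted p = 2.11e-05). Stc2, a relative of Stc1, was higher there by 1.03 (SE 0.17, adjusted p = 7.84e-05). Ppp1r3c and Selenbp1, at 1.21 and 1.45, did not pass without 3D-3D replicate 3, at 0.75 (adjusted p = 0.0601) and 0.40 (adjusted p = 0.338). Against 2D-2D, 3D-2D had 4 of the 45 higher and 9 lower, against 9.74% and 10.6% of all genes, led by Stc1 at 1.18 (SE 0.11, adjusted p = 8.53e-08). In 3D-3D against 3D-2D, 26 of the 45 were higher and 13 lower, against 37.7% and 32.8% of all genes. With all libraries the interaction was positive in 15 and negative in 1, against 10.3% and 9.1% of all genes. Without 3D-3D replicate 3 it was still positive in genes such as Vegfa, at 1.10 (adjusted p = 8.6e-07). It was then negative in Hmox1 (-0.97, adjusted p = 1.42e-06), Bhlhe41 (-0.63, adjusted p = 0.0027) and Angptl4 (-0.41, adjusted p = 0.0148). In 2D-2D against sorted cells, 26 of 46 were higher and 16 lower, against 38.5% and 46.1% of all genes. Mif, a cytokine and HIF target, was higher there by 5.06 (SE 0.14, adjusted p = 2.52e-20), and Hif3a, another HIF alpha subunit, was lower, at -5.52 (SE 0.76, adjusted p = 2.68e-07).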

How the data were processed

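RNA was sequenced in 20 libraries, 4 for each of 5 groups taken from the titles. The submitters' processing notes name HISAT, Bowtie2 and the build GRCm38.p6. The versions, the program that counted and its use of strand are not stated there. Each deposited column holds expected counts made by the authors, of which 5.98% are not whole (tolerance 1e-06). Of 67228 rows 18012 carry values, and 5 columns of group averages were not used.

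Counts were rounded, filtered with filterByExpr, scaled with TMM and tested with edgeR 4.0.16 (R 4.3.3) quasi-likelihood tests, with Benjamini-Hochberg adjustment over all genes tested. Contrasts between cultures used the 16 cultured libraries (13704 genes, common BCV, the relative biological spread, of 0.122); those against sorted cells used all 20 (14715 genes, BCV 0.112). The test was also run on simulated data, and the outcome is not reported here. CPM values are TMM-scaled over 20 libraries. Fold changes are on the log2 scale with their standard error (SE). Levels per kilobase use the union of exons of the GRCm38 annotation (GENCODE vM21); coordinates are counted from 1. Promoters are from RefSeq on GRCm38.p6.

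The genes and lists were chosen with earlier results of these data known. Every library's value is given for 15 genes listed by name and for any other of the 37 among the 5 largest changes of called genes with a group mean of at least 10 CPM in a comparison between cultures (9 more); up to 6 other pathway genes per comparison were named by size of change, of which 1 is not reported here. Replicate numbers were taken only as names: the deviations of same-numbered libraries from their group means correlated by -0.005 on average (40 pairs, 1 over 0.1), and those of other numbers by 0.001. Alternatives were RLE size factors, library size alone, no filter, DESeq2 1.42.0, a replicate block, each library left out in turn, and the longest transcript as length. No replicates held identical values; chi-square over degrees of freedom was 2.8 to 39.31 for pairs within a group.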

Additional observations from a re-analysis of the deposited data

Results flagged for a closer look

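In 185 groups of 4 libraries (37 genes in 5 groups), 15 held a library far from the other 3 by Dixon's test, and chance gives about 1 in 20. Of these, 8 were 3D-3D replicate 3, always as the high library: Slc2a1 at 720.0 CPM, Slc2a3 at 32.9 CPM, Hk1 at 284 CPM, Pfkp at 102 CPM, Egln3 at 514 CPM, Car9 at 15.2 CPM, Vhl at 32.9 CPM and Hilpda at 175 CPM. In 3D-2D, replicate 2 was high for Hk2 at 72.1 CPM, and replicate 1 was low for Gapdh at 15500 CPM and Pkm at 3510 CPM and high for Kdm3a at 39.8 CPM. Tpi1 was low in 2D-2D replicate 4 at 1390 CPM. In sorted cells, Ldha was low in replicate 2 at 215 CPM and Egln3 in replicate 3 at 5.16 CPM.

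The effect of the second culture differed with the first in 17 genes, by the interaction test at an adjusted p below 0.05. On the log2 scale, the 3D-3D over 3D-2D effect less the 2D-3D over 2D-2D effect was 2.03 for Ndrg1, 1.79 for Egln3, 1.76 for Slc2a3, 1.40 for Ddit4, 1.15 for Slc2a1, 1.07 for Bnip3, 0.91 for Ak4 and 0.90 for Slc16a3. It was 0.77 for Ldha, 0.70 for Tpi1, 0.68 for Hk2, 0.67 for Pfkl, 0.66 for Eno2, 0.65 for Gapdh, 0.64 for Eno1 and 0.56 for Higd1a. Pfkfb4 alone was negative, at -0.67. Not all of these calls were firm. Gapdh and Higd1a lost the call without any 1 of the 2D-2D or 3D-2D libraries. Both also lost it without 2D-3D replicate 3 or replicate 4 and without 3D-3D replicate 3. Gapdh also lost it with DESeq2 and without 2D-3D replicate 2 or 3D-3D replicate 1. Higd1a also lost it with library size alone, with the replicate block and without 3D-3D replicate 4. Without 3D-2D replicate 1, Eno1, Pfkl and Tpi1 were lost too. Eno1 was also lost without 2D-2D replicate 3, 2D-3D replicate 3 or replicate 4, or 3D-3D replicate 3.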

How the results depend on the processing

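Over the alternatives, 3201 of 3413 recomputed changes of single genes kept their direction and their side of the threshold, 119 no longer passed it, 89 newly passed it and 4 turned. Scaling by library size alone left 4 genes lower in 3D-3D than in 2D-2D, 8 lower in 2D-3D than in 2D-2D, 0 lower in 3D-3D than in 3D-2D (27 then higher) and 2 lower in 3D-2D than in 2D-2D; RLE size factors gave 2 in the last. Aldoa in 3D-3D against 2D-2D turned to 0.01. With each library left out in turn, genes lower numbered 7 to 13 in 3D-3D against 2D-2D, 2 to 8 in 3D-3D against 3D-2D, 1 to 2 in 3D-2D against 2D-2D and 3 to 5 in 3D-3D against sorted cells, and 11 to 22 were higher in 3D-3D than in 2D-3D. The reversals were all without 3D-3D replicate 3: Slc2a1 at -0.32 and Egln1 at -0.33 against 2D-2D, and Pfkp at -0.36 against 3D-2D. Summed transporters and enzymes under library size alone were 38400 CPM in 3D-2D, 43810 in 2D-2D and 5384 in sorted cells, and summed regulators, sensors and HIF targets 1000, 1124 and 1421 CPM. By the longest transcript, Epas1 made up 7.54% of both subunits in 3D-3D, 4.56% in 2D-2D and 87.4% in sorted cells, Aldoc 0.742% in 3D-3D and 0.123% in 2D-2D, Slc2a3 15.5% in sorted cells and Pfkp 5.2% in 2D-2D. With the replicate block Slc2a1 (3D-3D against 3D-2D, 0.38, adjusted p = 0.0709) and Higd1a (3D-2D against 2D-2D, -0.39, and the interaction, 0.55) were lost, Pfkp (2D-2D, -0.42) and Hilpda (3D-2D, -0.49) passed against sorted cells, and no other call changed. The causes were not tested. Low levels such as those of Car9 limit its precision.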
